A study of Homo sapiens with 5 samples.

Results

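MIAPaCa2 cells carrying a construct with the α2 integrin cytoplasmic domain were compared with those carrying none, and the question was which transcripts differed the same way in both settings in which the domain was added. The rule took a probe set as a member when it lay at least 2-fold to the same side in all 3 available differences, namely MP2-α2/TC minus MP2-mock, MP2-α2/CI minus MP2-mock and MP2-α9α2 minus MP2-α2Δ. Of 28199 measured probe sets, 36 met it, 12 higher with the domain (0.0426%) and 24 lower (0.0851%). The 12 belong to 6 genes and the 24 to 20 genes plus 2 probe sets without a gene symbol.

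The study placed 5 stable populations of MIAPaCa2, an established human line from a poorly differentiated pancreatic ductal adenocarcinoma, on 1 Affymetrix array each, so no population has a replicate and no single difference has an error. MP2-mock cells were kept under drug selection with no α2 construct, and the sources used here do not name the drug. Both α2 populations, MP2-α2/TC as well as MP2-α2/CI, expressed full-length α2 from the cytomegalovirus promoter, derived from the same transfection and panning on collagenI, and were selected with zeocin. The former was grown on tissue culture plastic and the latter on collagenI. The coating of 25 μg/mL collagenI is stated for the panning and not for the later culture. MP2-α2Δ cells carried α2 with its cytoplasmic domain deleted, again under zeocin and on collagenI after panning at 25 μg/mL. MP2-α9α2 cells carried a chimera of the α9 ectodomain and membrane span on the α2 cytoplasmic domain, under G418 and on 10 μg/mL tenascin FNIII. The step from MP2-α2Δ to MP2-α9α2 thus changed ectodomain, substrate and drug along with the cytoplasmic domain. The step from MP2-mock to the α2 populations changed ectodomain and tail together. It also added panning on collagenI and, for MP2-α2/CI, growth on collagenI, and whether the drug changed is not known. The part of each cannot be told apart, and each population is a single stable selection.

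Integrins are αβ heterodimers that bind matrix outside the cell and, through short cytoplasmic tails, proteins of the cytoskeleton and signalling enzymes inside it. α2 pairs with β1 as a collagen receptor, and α9 pairs with β1 as a receptor for tenascin. The tails of α subunits share a membrane-proximal stretch and differ beyond it, and the α2 tail has been linked to p38 mitogen-activated protein kinase and to collagen gene control.

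Values are log2 signals as deposited. MP2-mock had its minimum of 2.24 in common with both α2 arrays, and MP2-α2Δ and MP2-α9α2 had theirs of 2.21 in common. These were taken as separately normalized sets, and differences were taken only within a set. Where a level is set beside one of the other set, the offset between the sets, a median of 0.53 to 0.54 above MP2-mock, is part of it. The median signal, taken where all 5 arrays exceeded the floor, was 6.88 to 6.89 in the first set and 7.69 to 7.72 in the second. From 28665 to 30717 probe sets lay above the floor, the background set on each array by the 95th percentile over 107 probe sets for odorant receptors (2.21 to 2.27). On the α2 arrays, 14109 of 28199 measured probe sets (50%) had values identical within 1e-06, so these arrays are not independent readings, and 4 of the 36 members read the same on both. MP2-mock shared the identical value too at 10554 (37.4%), and MP2-α2Δ and MP2-α9α2 were identical at 7244 (25.7%). A difference of 0.00, or a median of 0.00 over many genes, is therefore partly a property of how the values were made and is not read as a measured lack of change. Keratin 8 and keratin 18 lay between 14.18 and 15.22 on every array, while the epithelial markers EPCAM and CDH1 stayed at or near the floor. Of 9 fibroblast markers COL1A1 and COL1A2 exceeded 4, and no blood, endothelial or acinar marker did.

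The construct itself could not be read. The study's text places the ITGA2 probes in sequence that the transgene lacks. Both ITGA2 probe sets were at the floor everywhere but in MP2-α2Δ. On that array they read 7.28 and 3.28, so the baseline of the chimera stood apart from the other populations in this transcript, and the source of the signal was not tested. A full-length ITGA2 transcript encodes the cytoplasmic domain, so MP2-α2Δ is classed as lacking the domain by its construct alone. All 4 ITGA9 probe sets were at the floor on every array. ITGB1, the β1 partner of both α subunits, read 13.57 on MP2-mock, 13.61 on MP2-α2/TC, 13.61 on MP2-α2/CI, 14.24 on MP2-α2Δ and 14.84 on MP2-α9α2 with its brightest probe set. It was 0.60 higher on the chimera than on the deletion and 0.04 higher on the α2 arrays than on MP2-mock.

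Stretches of promoter from 4 of the genes that were lower with the domain are shown because they carry the same 10 letters, GGGAATTTCC, a form of the binding consensus of NF-κB. They come from the RefSeq promoters of build GRCh38.p14. Each is read 5′ to 3′ on the strand of its gene, which is the minus strand of the chromosome. The run that matches the consensus is in capitals. CXCL2 is chr4:74099218-74099318, CXCL3 is chr4:74038713-74038813, CXCL5 is chr4:73998713-73998813 and TNFRSF9 is chr1:7940858-7940958. The matches begin 78, 79, 91 and 74 bases before the transcription start.
CXCL2: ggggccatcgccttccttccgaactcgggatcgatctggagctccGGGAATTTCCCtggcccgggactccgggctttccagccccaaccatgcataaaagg
CXCL3: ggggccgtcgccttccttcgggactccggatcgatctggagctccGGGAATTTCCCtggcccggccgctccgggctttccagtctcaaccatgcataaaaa
CXCL5: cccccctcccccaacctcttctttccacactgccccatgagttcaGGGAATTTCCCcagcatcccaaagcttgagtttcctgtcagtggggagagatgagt
TNFRSF9: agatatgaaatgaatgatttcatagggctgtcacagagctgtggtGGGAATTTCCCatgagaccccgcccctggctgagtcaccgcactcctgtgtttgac
Chromosome 4 holds the first 3, neighbours in a cluster of chemokine genes.

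Sizes differed greatly between the sets of arrays. MP2-α9α2 was at least 2-fold above MP2-α2Δ at 1506 probe sets (5.34%) and below it at 2252 (7.99%). Both α2 arrays were at least 2-fold above MP2-mock at 37 (0.131%) and below it at 53 (0.188%). The SD of the difference over measured probe sets was 0.74 for MP2-α9α2 minus MP2-α2Δ, against 0.19 and 0.21 for the α2 arrays minus MP2-mock. Of the 37 that were higher on the α2 arrays, 12 (32.4%) were also higher in the chimera, 10 (27%) were lower there and 15 lay within 2-fold. Of the 53 that were lower, 24 (45.3%) were lower in the chimera, 4 (7.55%) were higher and 25 lay within 2-fold. Probe sets that were higher with α2 were thus found on either side in the chimera in similar numbers, and those that were lower were found 24 against 4 on the same side. No test was made of these shares, since each rests on single arrays.

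**Figure D1:**
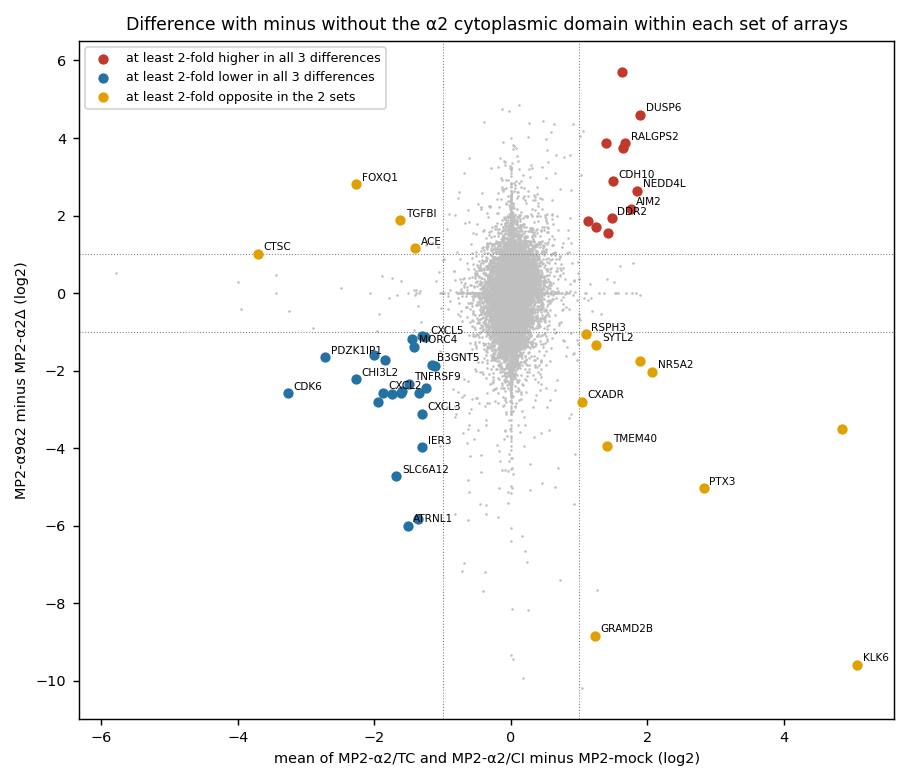
Each grey point is a measured probe set, with the mean log2 difference of MP2-α2/TC and MP2-α2/CI from MP2-mock on the x axis and the log2 difference of MP2-α9α2 from MP2-α2Δ on the y axis. Dotted lines mark 2-fold. The 12 red and 24 blue points met the rule in all 3 differences, the 14 yellow points were at least 2-fold in opposite directions, and gene names are left off where they would overlap.

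The 6 genes that were higher with the domain encode a phosphatase of ERK, a collagen-binding receptor tyrosine kinase, a cadherin, a ubiquitin ligase, an exchange factor for Ral and a DNA sensor. In all 12 of their probe sets the chimera's difference was the largest of the 3. Across all 5 arrays, 11 of the 12 had every value with the domain above every value without it, an order that the rule largely fixes and that 1.27% of all measured probe sets showed.

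DUSP6 dephosphorylates ERK and is itself transcribed in response to ERK activity. Its signal was 5.72 on MP2-mock, 7.34 on MP2-α2/TC, 7.90 on MP2-α2/CI, 3.95 on MP2-α2Δ and 8.55 on MP2-α9α2 (208891_at). The chimera was 24.2-fold above the deletion, and the α2 arrays 3.06-fold and 4.54-fold above MP2-mock. All 3 DUSP6 probe sets met the rule, and the other two gave chimera differences of 3.74 and 5.71 on the log2 scale. DDR2 is a receptor tyrosine kinase whose ligand is fibrillar collagen, which makes it a second collagen receptor beside α2β1. It read 7.51 on MP2-mock, 8.89 on MP2-α2/TC, 9.09 on MP2-α2/CI, 8.85 on MP2-α2Δ and 10.78 on MP2-α9α2 (227561_at). The highest value without the domain, that of MP2-α2Δ, lay just under the lowest with it, while the differences within sets were 1.38, 1.58 and 1.93. The rule was met by 3 of its 4 probe sets, and the fourth, at 5.03, 5.87, 5.84, 4.55 and 5.60 in the same order, was higher in all 3 differences as well.

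RALGPS2 activates the small GTPase Ral. It lay at 4.22 on MP2-mock, 5.95 on MP2-α2/TC, 5.86 on MP2-α2/CI, 4.0 on MP2-α2Δ and 7.85 on MP2-α9α2 (227533_at), 3.30-fold, 3.11-fold and 14.5-fold higher with the domain. A further probe set gave 3.86 for the chimera's log2 difference again, and 3 of 5 were higher in every difference. CDH10, a type II classical cadherin, had 1 probe set with 5.51, 7.11 and 6.90 in the first set and 6.12 and 9.0 in the second. Its folds were 3.03, 2.62 and 7.36. AIM2, the cytosolic DNA sensor that assembles an inflammasome, had 6.98, 8.38 and 9.09 in the first set and 4.89 and 7.08 in the second. Its chimera value exceeded MP2-mock only slightly and lay below both α2 arrays, so the order holds within sets and there is no common level.

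NEDD4L is a HECT ubiquitin ligase known for removing the epithelial sodium channel from the membrane. Its probe set 212445_s_at read 6.64 on MP2-mock, 8.82 on MP2-α2/TC, 8.17 on MP2-α2/CI, 5.29 on MP2-α2Δ and 7.93 on MP2-α9α2. The differences were 2.18, 1.53 and 2.64. Its probe sets differed among themselves: 2 of 6 met the rule and 3 were higher in every difference, while 241396_at, at 4.56, 6.62 and 6.17 in the first set, read 2.28 on both MP2-α2Δ and MP2-α9α2.

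**Figure D2:**
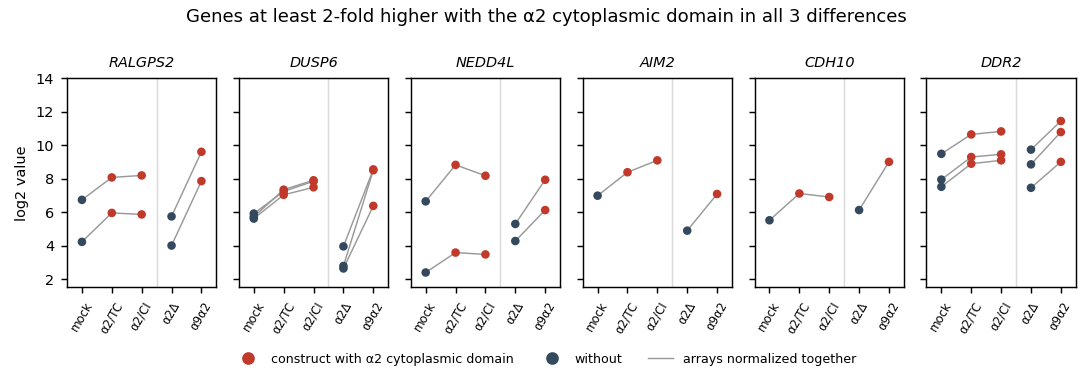
Log2 value of every member probe set (y axis) on each array (x axis) for the 6 genes higher with the domain, red for constructs with the α2 cytoplasmic domain and dark grey for those without. Grey lines join arrays normalized together, and within each set the red points lie above the dark grey one.

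Among the 20 genes that were lower with the domain were the cell cycle kinase CDK6, the chemokines CXCL2, CXCL3 and CXCL5, the immune surface proteins TNFRSF9 and CD83, and the early response gene IER3. For 19 of the 24 probe sets the MP2-α2Δ value exceeded MP2-mock, on arrays whose common median lay 0.53 apart in that direction. On all 5 arrays, 16 of the 24 had every value with the domain below every value without it, where 2.54% of all measured probe sets did and where, again, the rule largely fixes the order. For 3 of them a value at the floor makes at least 1 difference a bound.

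CDK6 binds D-type cyclins and phosphorylates the retinoblastoma protein. It was the member with the largest smallest difference, at 6.72 on MP2-mock, 4.06 on MP2-α2/TC, 2.85 on MP2-α2/CI, 12.20 on MP2-α2Δ and 9.60 on MP2-α9α2 (224847_at). It was 6.31-fold and 14.6-fold lower on the α2 arrays and 6.04-fold lower on the chimera. The levels of the 2 sets were far apart, with both arrays of the second above all 3 of the first, so the construct ordered CDK6 only within a set. All 3 measured CDK6 probe sets met the rule and 4 more were not measured. Of 25 measured genes of the cell cycle list CDK6 was the only one at least 1.5-fold lower in all 3 differences, where 0.264% of all genes were. None was higher, where 0.115% of all genes were, and the list medians were −0.01, −0.05 and −0.23.

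The chemokines CXCL2, CXCL3 and CXCL5 attract neutrophils through the receptor CXCR2. CXCL2 read 10.31 on MP2-mock, 8.15 on MP2-α2/TC, 8.72 on MP2-α2/CI, 11.41 on MP2-α2Δ and 8.85 on MP2-α9α2, with a probe set of the _x_at kind that can also read its close paralogs. That is 4.46-fold, 2.99-fold and 5.92-fold lower. CXCL3 read 5.69, 4.32 and 4.47 in the first set and 7.97 and 4.87 in the second, the last pair 8.61-fold apart. CXCL5 gave the smallest steps of these genes, 10.07, 8.73 and 8.91 against 11.93 and 10.79, with the 1 of its 3 probe sets that met the rule. Its brightest, 214974_x_at, had differences of −0.92, −0.64 and −0.54. The third, 207852_at, lay near the floor in the first set and had −0.02, −0.02 and −0.91. CXCL1, at 12.23, 11.38, 11.52, 12.15 and 9.59, missed 2-fold on the α2 arrays and lay 2.56 lower on the chimera. CXCL8, a further ligand of CXCR2 named after its values were seen, had differences of 0.03 and 0.03 on the α2 arrays and −0.34 on the chimera, so not every chemokine of the list was lower on the α2 arrays.

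TNFRSF9, the T cell costimulator 4-1BB, read 5.24 on MP2-mock, 3.75 on both α2 arrays, 5.08 on MP2-α2Δ and 2.74 on MP2-α9α2. CD83, an immunoglobulin-family protein of mature dendritic cells, read 5.43, 4.31 and 4.35 in the first set and 6.76 and 4.89 in the second. IER3, an early response protein that modulates ERK signalling and survival, stood at 8.74, 7.35 and 7.54 and at 9.13 and 5.15. Of these, the chimera's step was largest for IER3, 15.8-fold. CHI3L2, a chitinase-like secreted protein, read 4.88, 2.55 and 2.69 and then 7.88 and 5.65. Its differences were of almost the same size, −2.34, −2.19 and −2.23. Its values on the α2 arrays lay close to the floors of 2.25 and 2.27, which limits the size of the first 2. PDZK1IP1, a small membrane protein that binds PDZ domains, was 10.03 on MP2-mock, 7.2 on MP2-α2/TC and 7.44 on MP2-α2/CI. It was 8.90 on MP2-α2Δ and 7.23 on MP2-α9α2. Its 3 values with the domain lay between 7.2 and 7.44, a comparison that crosses the sets. Its other probe set, 1553589_a_at, was also lower in all 3 differences but missed 2-fold on the chimera, at −0.91.

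The other lower genes had varied roles. SLC6A12, a transporter of betaine and GABA, read 6.64, 4.87 and 5.06 in the first set and 7.35 and 2.63 in the second, a 26.4-fold step in the latter. PRRG4, a membrane protein with a Gla domain, read 11.46, 9.74 and 9.95 and then 12.17 and 9.57. Its other probe set, 238513_at, was lower in all 3 differences but missed 2-fold on MP2-α2/CI, at −0.90. B3GNT5, a glycosyltransferase of lacto-series glycolipids, lay at 8.84, 7.59 and 7.77 and at 9.10 and 7.24. Of these, SLC6A12 was the most unequal between sets. For B3GNT5 1 of 3 probe sets met the rule. Its 1554835_a_at and 1556134_a_at were lower on the α2 arrays but had a chimera difference of 0.00. PCDH1, a protocadherin, was 8.72, 7.63 and 7.33 and then 10.21 and 7.74. The other PCDH1 probe set, 215277_at, missed the rule, with differences of −0.60, −0.60 and −0.27. S100A3, a calcium-binding protein, was 6.57, 4.76 and 4.36 and then 6.17 and 4.57. VAMP5, of the SNARE family, was 6.91, 5.38 and 5.85 and then 8.11 and 6.98. Its chimera value lay above MP2-mock, so its groups overlap when all arrays are pooled.

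For GASK1B and ATRNL1 the step in the second set was far larger than in the first. GASK1B, a Golgi-associated kinase-related protein, read 5.90, 4.54 and 4.55 and then 11.02 and 5.21, and ATRNL1, an attractin-like membrane protein, read 3.77 on MP2-mock, the floor on both α2 arrays, 8.21 on MP2-α2Δ and 2.21 on MP2-α9α2. The steps on the chimera were 56.4-fold for the former and at least 64.1-fold for the latter, all of whose differences are bounds set by the floor. The other GASK1B probe set, 219872_at, missed the rule, with differences of −0.38, −0.36 and −5.46. Its values on both α2 arrays were at the floor. MORC4, an ATPase of the CW zinc finger family, read 6.11, 4.93 and 4.45 and then 3.60 and, at the floor, 2.21. RNF182, a RING ubiquitin ligase, read 7.93, 6.60 and 6.36 and then 12.75 and 11.57. For RNF182, as for CDK6, both arrays of the second set lay above the first whatever the construct. PEG10, an imprinted gene derived from a retrotransposon, read 7.21, 5.07 and 5.66 and then 6.37 and 4.64, but its other probe set, at 6.49, 3.75 and 5.12 in the first set, read 2.61 on both arrays of the second. The unnamed 202855_s_at and 202856_s_at were lower by 1.42 to 2.81 in the 3 differences.

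**Figure D3:**
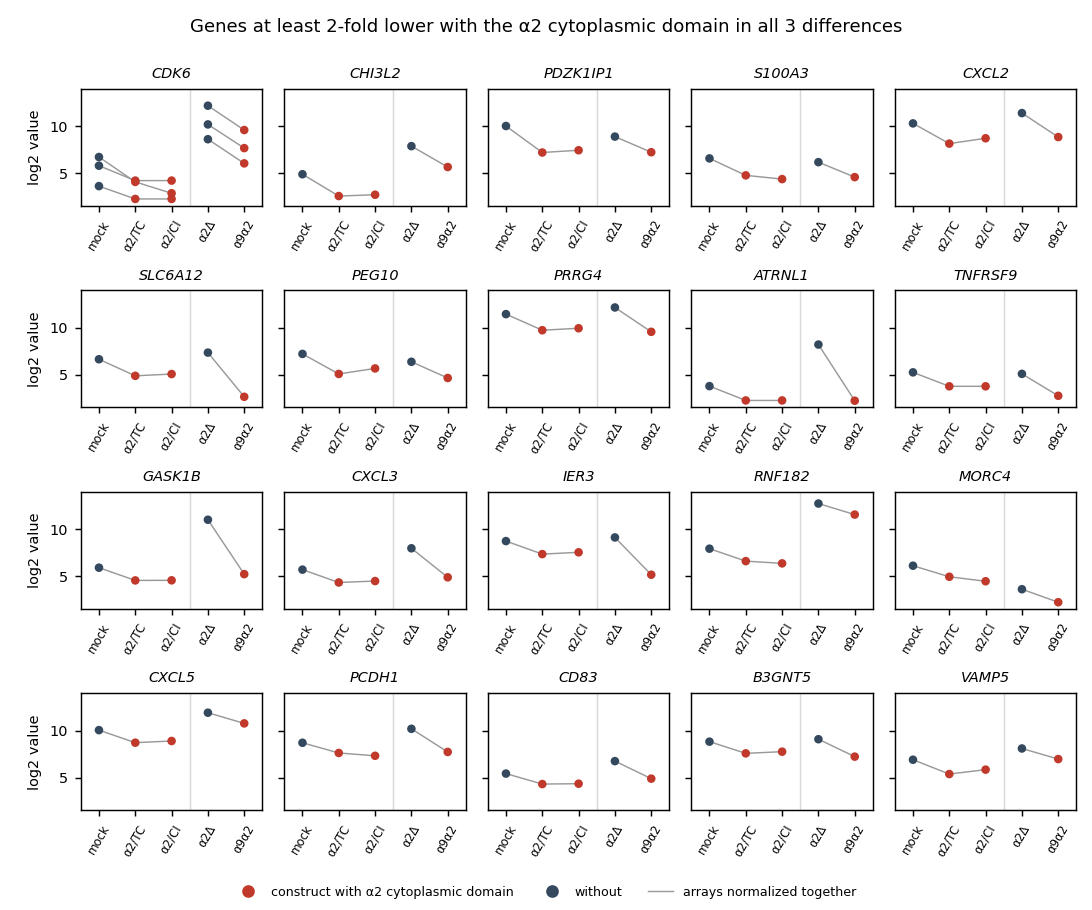
Log2 value of the member probe sets of the 20 named genes that were lower with the domain (y axis) on each array (x axis), coloured and joined as in the plot of the 6 higher genes. In each set the red points lie below the dark grey one, from steps near 1 for VAMP5 to a bound of 6.0 for ATRNL1 on the chimera.

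The threshold fell close to several genes. Just inside were NEDD4L 226974_at with a smallest difference of 1.08 among the higher and VAMP5 with 1.06 among the lower. Just outside among the higher was PRKACB, a catalytic subunit of protein kinase A, at 4.45, 5.44, 5.59, 4.05 and 8.24 (smallest difference 0.99). Just outside among the lower were the zinc transporter SLC39A8 (0.98), SGCE (0.97) and TNFAIP3 (0.94). PRKACB and SGCE are named here for their place at the threshold after their values were seen. At 1.5-fold the members were 36 probe sets higher and 47 lower.

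NF-κB drives genes of inflammation, among them the CXCL chemokines. The list of 18 measured NF-κB subunits, targets and cytokines held 4 genes at least 1.5-fold lower in all 3 differences, CXCL1, CXCL2, CXCL3 and TNFAIP3, and none higher. Over all 12126 measured genes, 32 were lower in this way (0.264%) and 14 higher (0.115%). TNFAIP3, which ends NF-κB signalling, stood at 6.99, 5.35 and 5.78 in the first set and 3.53 and 2.59 in the second. The list's medians were −0.33, −0.27 and −0.04, against 0.00 for all genes in each difference, and 7 of the 18 were below 0 in all 3 where 11.6% of all genes were. The list was chosen with earlier results of these data known, and CXCL2 and CXCL3 were already members by the same differences. These shares are therefore descriptive and were not tested. The subunits went with neither side throughout: RELB was 6.71, 4.47 and 5.18 in the first set but 3.41 and 3.86 in the second, a difference of 0.45 the other way. SOD2 was 0.91 higher on the chimera. RELB and SOD2 were named after their values were seen.

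The promoter letters were counted after these values were seen. The NF-κB consensus was looked for on both strands in the 250 bases before the start of each RefSeq promoter, where it matched in 9.96% of 35116 promoters and, taking any promoter of a gene, in 11.8% of 27305 genes. Of the 20 named lower genes 17 have an entry (all but IER3, PEG10 and SLC6A12) and 8 of them held a match (47.1%), namely CD83, CHI3L2, CXCL2, CXCL3, CXCL5, PDZK1IP1, RNF182 and TNFRSF9. Among the 6 higher genes NEDD4L alone had it (16.7%). The exact letters GGGAATTTCC, which overlap that consensus, were taken from the match in the CXCL2 promoter. They were in 50 of the 35116 promoters (0.142%), in those of the 4 lower genes printed above and in none of the 6 higher genes. CXCL1 has them too and TNFAIP3 does not. CXCL2 had to hold these letters, and CXCL3 and CXCL5 are its neighbours in the cluster. The share is per promoter and not per gene, so these counts are a description and not a test. A match describes the letters and not a bound site.

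ERK phosphorylation of transcription factors raises a known group of feedback genes, including DUSP6, the SPRY and SPRED inhibitors and the ETV factors. Of 22 measured genes of ERK output and feedback, DUSP6 was at least 1.5-fold higher in all 3 differences, and IER3 and PHLDA2 were lower. PHLDA2, a growth-limiting imprinted gene, read 9.56, 8.73 and 8.78 and then 9.93 and 6.81. The list's median was 0.03 and 0.08 for the α2 arrays and 0.53 for the chimera, and 10 of the 22 were above 0 in all 3 differences where 12.7% of all genes were. On the chimera 7 of the 22 were at least 2-fold higher, where 5.24% of all genes were, and 3 were lower, where 10.4% were. This list too was chosen with earlier results known, and DUSP6 and IER3 were already members, so its shares are descriptive. Named after their values were seen, ETV1 read 5.47, 5.86, 6.35, 5.27 and 9.63 and SPRY1 9.99, 10.34, 10.60, 9.98 and 11.67 in the same order of arrays. On the α2 arrays both were less than 2-fold above MP2-mock.

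**Figure D4:**
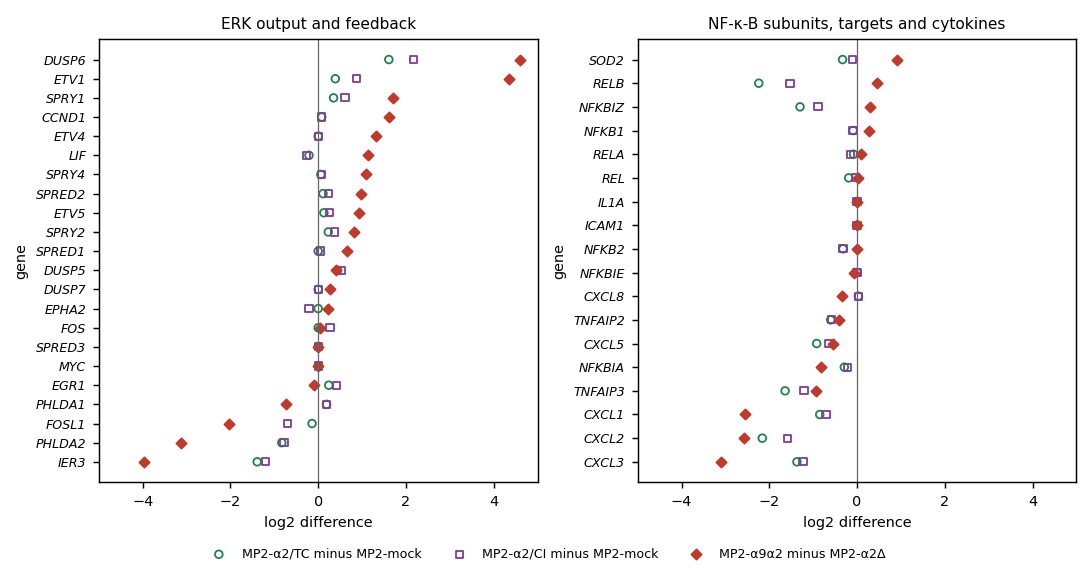
Log2 differences (x axis) of each measured gene (y axis) of the ERK list on the left and the NF-κB list on the right, for the brightest probe set of the gene, as circles and squares for the α2 arrays against MP2-mock and diamonds for the chimera against the deletion. DUSP6 lies to the right of 0 with all 3 marks, and CXCL1, CXCL2, CXCL3 and TNFAIP3 lie to the left of it with all 3.

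Few genes of the other lists followed the rule even at 1.5-fold. Over all 12126 measured genes 0.115% were higher and 0.264% lower in this way, so a short list with none is no result about its genes. Among 15 targets of YAP and TEAD, AJUBA, a LIM protein of junctions, was higher at 7.53, 8.15, 8.20, 9.31 and 10.36, and among 20 receptor tyrosine kinases DDR2 was. PCDH1 was the lower member of 13 junction genes. No gene passed in either direction among 11 integrin subunits, 22 tail and focal adhesion proteins, 13 genes of the p38 pathway, 17 of the TGF-β pathway, 18 matrix proteins, 19 pericellular proteases and inhibitors, 8 kallikrein-related peptidases, 6 epithelial-mesenchymal regulators, 15 interferon-stimulated genes and 14 NRF2 targets. The p38 list's medians were 0.00, −0.03 and −0.19. Matrix proteins had a median of 0.49 on the chimera and 0.00 on both α2 arrays.

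In 14 of 28199 measured probe sets the 2 settings differed at least 2-fold in opposite directions. Of these, 10 were higher in the α2 cells and lower in the chimera, and 4 the reverse. By its smallest difference (3.51) the first of them was 218870_at, a probe set with several gene symbols and therefore unnamed, at 4.05 on MP2-mock, 8.79 on MP2-α2/TC, 9.0 on MP2-α2/CI, 5.72 on MP2-α2Δ and, at the floor, 2.21 on MP2-α9α2. KLK6, a trypsin-like kallikrein, came next (3.43) and had the largest chimera difference of the 14, at 3.36 on MP2-mock, 10.08 on MP2-α2/TC, 6.79 on MP2-α2/CI, 12.28 on MP2-α2Δ and 2.68 on MP2-α9α2. Its high values were those of the 3 cell populations with an α2 ectodomain, with or without the tail. Those 3 populations were also panned on collagenI and selected with zeocin, and the part of each cannot be told apart. PTX3, a soluble pattern recognition protein, had 7.76, 10.38 and 10.80 and then 9.79 and 4.75, TMEM40 6.62, 8.07 and 8.0 and then 8.11 and 4.16. The nuclear receptor NR5A2 had 7.24, 9.13 and 9.50 and then 4.68 and 2.66, and so reads lower in both arrays of the second set. In the other direction TGFBI, a secreted matrix protein, had 11.19, 9.52 and 9.62 and then 10.18 and 12.06, and the forkhead factor FOXQ1 8.80, 5.43 and 7.65 and then 3.63 and 6.43. Within each set these were lower where the α2 ectodomain was present, although FOXQ1 on MP2-α2/CI read above its chimera value. Here too the ectodomain cannot be told apart from panning and drug. KLK5, which cleaves matrix and activates other kallikreins, was 2.41, 4.90 and 2.44 and then 10.37 and 2.71. KLK7 was 2.42, 4.08, 2.54, 3.53 and 2.49 with its probe set 205778_at. Its brighter probe set, 239381_at, read 2.86, 3.20, 2.86, 5.66 and 5.23, with a chimera difference of −0.43. Neither gene met the rule.

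**Figure D5:**
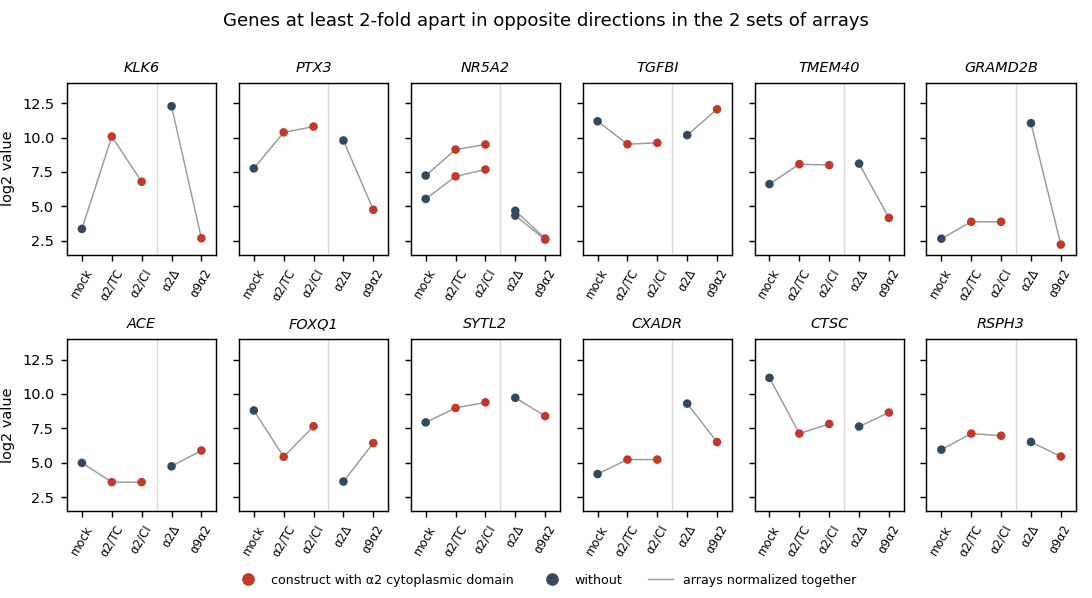
Log2 value (y axis) on each array (x axis) of the 12 named genes that were at least 2-fold apart in opposite directions in the 2 sets, coloured and joined as in the plot of the 6 higher genes. KLK6 is high on both α2 arrays and MP2-α2Δ and near the floor on the chimera, and TGFBI runs the other way.

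With all 5 arrays in 1 limma fit, the normalization set as a fixed term and 2 residual degrees of freedom, 858 of 32036 probe sets had an unadjusted p under 0.05 (2.68%), 514 higher and 344 lower with the domain. After Benjamini-Hochberg adjustment 1 remained (0.00312%), the unnamed 238666_at, at 3.05 on MP2-mock, 2.5 on both α2 arrays, 3.83 on MP2-α2Δ and 3.28 on MP2-α9α2 (limma difference −0.55, adjusted p = 0.00244). Its 3 differences were the same to the second decimal and its SE was 0.0008, which rests on identical values on the α2 arrays. The next in order of p, SLC39A8 (216504_s_at), LINC01278, the unnamed 233152_x_at and MDM4, had limma differences of −0.43, −0.26, −0.03 and −0.06 and adjusted p of 0.113, 0.192, 0.192 and 0.433. The 36 members had limma adjusted p from 0.616 to 0.634, so none passed. They were chosen on this same contrast, and an exact two-sided test that permutes the labels within sets cannot go below p = 0.167 for any gene. Without MP2-α2Δ, with the chimera set against MP2-mock after quantile normalization of all 5 arrays, 8 of the 12 higher and 17 of the 24 lower probe sets still met the rule, among 12 and 39. All 3 differences then share MP2-mock, against which the members had already been chosen. The chimera's difference also crosses the sets, so the number kept is no independent support.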

How the data were processed

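RNA of 5 MIAPaCa2 populations was labelled from 100 ng total RNA and hybridised to 1 Affymetrix array each. The values are those the authors deposited after normalization, 1 for each probe set, and were read as log2 by their range. GCRMA and MAS5 appear in the submitters' processing notes with no step or version attached. The log base and the grouping of arrays in normalization are not given in the sources used here. Sets were taken from each array's minimum, equal to 4 decimals. Of 54675 probe sets, 62 controls were left out. The platform annotation gave 1 symbol for 41091, several for 1801 and none for 11721, and 41037 symbols were updated through RefSeq. Differences were taken after setting values under the floor to the floor. A probe set counted as measured if above the floor on at least 1 array of each set. Genes were named where they met the rule (15 lower, and the rest of the 20), were opposite in the 2 sets (5 per direction, with the others named among the results of opposite sign), belonged to a list at 1.5-fold, led the limma fit, or were KLK5, KLK6, KLK7, ITGA2, ITGA9 or ITGB1. Others are said to be chosen after their values were seen. For the 21 gene lists the brightest probe set stood for a gene. Limma 3.58.1 (R 4.3.3, intensity trend) was fitted to deposited values wherever at least 2 arrays exceeded the floor, after a check on simulated data. The members and lists were chosen with earlier results of these data known. With 1 array per population, p-values measure only the spread between these arrays, and signal over the floor limits precision. Alternatives were other folds, floors, scalings, probe set types and limma settings, and leaving out arrays.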

Additional observations from a re-analysis of the deposited data

Results flagged for a closer look

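In 14 probe sets the α2 arrays and the chimera lay at least 2-fold in opposite directions from the array without the domain in their own set. The difference between the 2 settings was not tested, since each rests on single arrays. Higher in both α2 populations, the chimera minus deletion difference was −9.60 for KLK6, −5.04 for PTX3, −3.94 for TMEM40, −2.80 for CXADR, the receptor of coxsackie and adenoviruses, −1.33 for SYTL2, which tethers vesicles, and −1.06 for RSPH3, a radial spoke protein. NR5A2 gave −2.03 and −1.75 with its 2 probe sets of this kind. GRAMD2B went from 11.05 on MP2-α2Δ to 2.22 on MP2-α9α2, a difference of −8.84, while its α2 values were 3.88 and 3.88 over 2.65 on MP2-mock. Lower in both α2 populations, the chimera difference was 1.88 for TGFBI, 2.81 for FOXQ1, 1.15 for ACE, the angiotensin converting enzyme, and 1.02 for the protease CTSC. The other 3 CTSC probe sets were also lower on the α2 arrays but had chimera differences of −0.41, 0.29 and 0.00.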

How the results depend on the processing

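With 12, 24 and 14 probe sets higher, lower and opposite, the counts became 36, 47 and 43 at 1.5-fold and 2, 5 and 5 at 3-fold. Without the probe sets that can read several transcripts, 14 remained lower. Leaving out 1 array gave 12 to 19 higher, 31 to 39 lower and 19 to 28 opposite, with 19 higher without MP2-α2/TC and 28 opposite without MP2-α2/CI. Without MP2-α2Δ, an alternative chosen after seeing the data in which the chimera was set against MP2-mock after quantile normalization, 8 of the 12 and 17 of the 24 were kept, among 12 and 39, and 5 of the 14 among 20. Every difference in that alternative shares MP2-mock, against which the members had already been chosen, and the chimera's crosses the sets. Other floors, centring and quantile normalization kept these counts within 1.5 times, and all 34 named probe sets kept direction and 2-fold size without a floor, after centring and after quantile normalization. List genes fell from 11 to 7 at 2-fold.

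Limma called 1 probe set (858 at unadjusted p under 0.05). It called 0 with no term for the set (40), with the set as a random block (882), without the intensity trend (883), and after quantile normalization over all arrays (749) or within sets (801). Leaving out 1 array gave 0 to 10918. Those high counts, 10918 without MP2-mock, 7660 without MP2-α2Δ and 7656 without MP2-α9α2, leave the α2 pair with its identical values as the sole source of spread. Leaving out MP2-mock or MP2-α9α2 leaves no difference in that set to count. No paired analysis was possible because each population has 1 array and no replicate.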

Other observations

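Below 2-fold, several further genes differed the same way in all 3 differences at 1.5-fold or more, named here after their values were seen. On the higher side was ACKR3, a scavenging chemokine receptor, at 8.09 on MP2-mock, 8.95 on MP2-α2/TC, 9.0 on MP2-α2/CI, 8.78 on MP2-α2Δ and 10.06 on MP2-α9α2. SFRP1, a secreted WNT antagonist, was 9.49, 10.32 and 10.36 in the first set and 2.38 and 3.44 in the second, so its level differed far more between the sets than with the domain. MYO10, the myosin of filopodia that binds integrin β tails, was 5.24, 5.99 and 6.17 and then 7.41 and 9.04. TRIB1, a pseudokinase, was 8.49, 9.53 and 9.42 and then 8.21 and 9.01. F2R, the thrombin receptor PAR1, was 6.93, 8.46 and 8.62 and then 6.76 and 7.45. On the lower side was UPP1, a uridine phosphorylase, at 9.36, 8.62 and 8.41 and then 10.03 and 7.54. TUBB2B, a β-tubulin, was 3.29, 2.59 and 2.58 and then 7.22 and 3.61. None of these differences has an error.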
